A study of Mus musculus with 4 samples.

Results

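The Ly6 gene cluster on mouse chromosome 15 was described in mouse embryonic fibroblasts after 1 h of interferon-beta. Ly6 genes encode small cysteine-rich proteins of the Ly6/uPAR family, most of them held on the outer cell surface by a glycosylphosphatidylinositol anchor. Several are widely used surface markers: Ly6a is Sca-1, found on blood stem cells and mesenchymal progenitors, and Ly6c and Ly6g mark monocytes and neutrophils. Type I interferon binds its receptor, signals through JAK kinases, and switches on interferon-stimulated genes, of which Ly6e and Ly6a are known members.

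The members were the loci with a transcript ID that overlap chromosome 15 from 74780000 to 75110000 in build mm9, which gave 8 of the 17576 loci in the deposited table. They were chosen with their difference between the libraries already known, so every difference below is a description and carries no test. The 8 members are not replicates of each other.

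The series holds 4 libraries of polyA RNA, 1 in each group, from C57BL/6 fibroblasts in which the H3f3b locus carries an H3.3-HA cDNA knock-in; every group shares this allele. Cells labelled naive and cells labelled pretreated were taken at 0 h or at 1 h of stimulation with interferon-beta (100 U/ml). The 2 libraries at 1 h were compared, naive against pretreated; both 0 h libraries were not analysed here, so induction over 1 h could not be separated from the level the cells started from. The labels name interferon-beta as the treatment and no separate agent for the pretreatment; how long the pretreatment lasted, and how long before stimulation it ended, is not given in the sources used here. With 1 library per group no value has a replicate error, and in bulk RNA a change in the number of expressing cells and a change in RNA per cell cannot be told apart. The series title names RNA-seq and the sample descriptions name scTSS-seq; the values were read as RNA-seq.

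The table gives transcript IDs and no gene symbols, so members were named by their layout. Of 10 loci in and beside the cluster that have a span of their own, 7 had the spans of GENCODE M21 transcripts (build GRCm38) and the same distances between them within 10 bases; the next best layout fitted 1 locus. This named 4 members. The first, Ly6e, lies from 74785481 to 74790335, a span of 4855 bp that equals that of transcript Ly6e-202. Next comes Ly6i, from 74810242 to 74813860, which starts 24761 bp after Ly6e in both builds. The third, Ly6a, lies from 74825307 to 74828331, and its start is 39826 bp from that of Ly6e in both builds. The fourth, Ly6c1, lies from 74875445 to 74879260; its start is 89964 bp from that of Ly6e in the deposited build and 89962 bp in GRCm38. Ly6e is annotated on the plus strand with 5 exons in the matched transcript, and Ly6i, Ly6a and Ly6c1 on the minus strand with 4 exons each.

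The other 4 members, uc007wgp.1, uc007wgq.1, uc007wgr.1 and uc007wgs.1, share a single listed span of 201411 bp, from 74901254 to 75102664, and cannot be placed within it. In RefSeq the genes that follow Ly6c1 up to Ly6f include the protein-coding genes Ly6c2, Ly6a2, Ly6g, Ly6g2 and Ly6f. Which of these each ID stands for was not determined, and these members are called by their IDs.

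The members differ in how far their reads can be told apart, and this bears on each value below. The first 90 coding bases of the paired transcripts show it, with Ly6c2 added as the closest relative of Ly6c1. Capitals mark bases that differ from Ly6c1 at the same position, counted from 1 at the start codon.
Ly6c1: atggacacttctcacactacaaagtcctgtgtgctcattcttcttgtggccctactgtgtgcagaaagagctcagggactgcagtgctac
Ly6c2: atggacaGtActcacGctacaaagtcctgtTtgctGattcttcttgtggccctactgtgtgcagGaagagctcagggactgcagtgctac
Ly6a: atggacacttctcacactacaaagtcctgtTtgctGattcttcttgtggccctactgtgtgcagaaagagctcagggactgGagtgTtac
Ly6i: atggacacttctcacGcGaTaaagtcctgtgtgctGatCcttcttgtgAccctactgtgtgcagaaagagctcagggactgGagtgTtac
Ly6e: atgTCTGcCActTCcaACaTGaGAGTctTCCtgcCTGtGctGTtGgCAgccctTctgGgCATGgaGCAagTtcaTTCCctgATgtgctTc

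Over this stretch Ly6c2 differs from Ly6c1 at 6 bases, Ly6a at 4, Ly6i at 8 and Ly6e at 45. Over the whole coding sequence, aligned end to end, Ly6c1 and Ly6c2 were identical at 97.73% of columns. The same measure was 86.42% for Ly6i and Ly6a, 81.98% for Ly6a and Ly6c1, and 53.05% for Ly6e and Ly6a. Ly6e thus stands apart in sequence from the other named members.

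Short windows of each transcript were then looked up in the transcripts of all other GENCODE genes. For Ly6e, 0 of 2105 windows of 50 bases were found in another gene. For Ly6a, 14.5% of windows of 50 bases were found elsewhere, and for Ly6i, 8.93%. For Ly6c1 it was 36.7%, with 31.7% in Ly6c2. At 100 bases the share was 2.44% for Ly6a and 15.3% for Ly6c1. Read length and the handling of reads with several matches are not given in the sources used here. The division of reads among Ly6c1, Ly6c2 and the loci of the shared span is therefore uncertain. For the paired Ly6e transcript no window of 50 bases had an exact match, and at 36 bases 0.472% matched Ly6e-ps1. Inexact matches and sequence outside annotated transcripts were not searched.

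**Figure D1:**
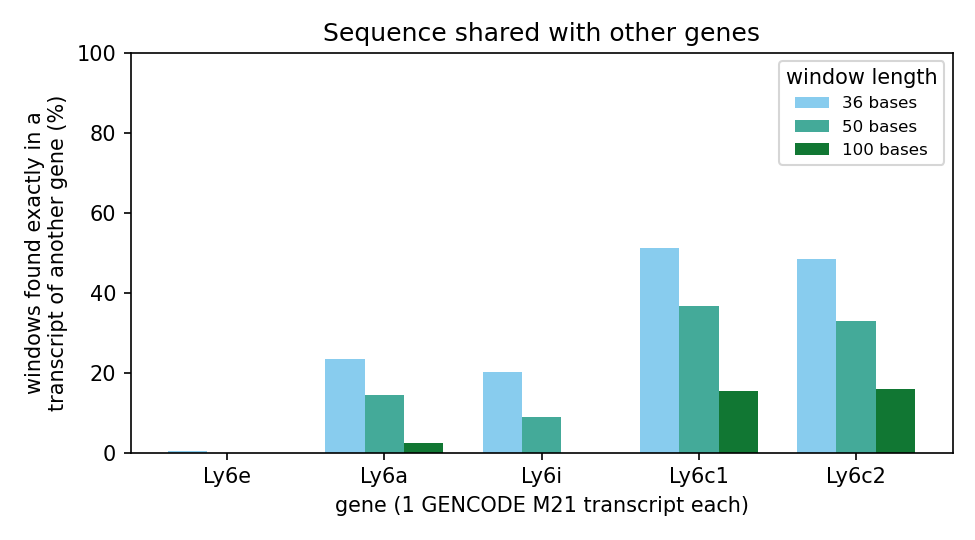
Share of the windows of 36, 50 or 100 bases in 1 GENCODE M21 transcript of each gene (horizontal axis) that occur exactly in a transcript of another gene (vertical axis, percent). Ly6e is near 0 at each length, and Ly6c1 and Ly6c2 share the most, 51.2% and 48.4% at 36 bases.

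All values are FPKM, fragments scaled by transcript length and by library size. Setting levels side by side between genes relies on reads spread along the whole transcript. The sample descriptions name scTSS-seq, and this spread was not tested. The highest member by FPKM was Ly6a. It stood at 2204 FPKM in the naive and 4513 FPKM in the pretreated library, 2.05-fold higher after pretreatment. Among 15829 loci with a transcript ID and a span of at least 300 bp, Ly6a ranked 77 by naive level and 34 by pretreated level. By FPKM it was therefore among the most abundant transcripts of these fibroblasts in both states.

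Ly6e, whose protein is an interferon-induced surface protein known for effects on virus entry, showed the widest difference of the cluster. Its level was 93.9 FPKM in the naive and 851 FPKM in the pretreated library, 9.07-fold higher. Its rank by level went from 734 in naive to 145 in pretreated cells. By signed change, from the largest increase down, it ranked 43 among 9227 loci with a transcript ID and a mean of at least 1 FPKM over the 2 libraries.

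Ly6c1, which encodes a form of the Ly-6C surface antigen, stood at 233 FPKM in the naive and 510 FPKM in the pretreated library. This was 2.19-fold higher, close to the ratio at Ly6a. Ly6i, another member of the family, was near the lower end in both libraries, at 0.578 FPKM in the naive and 0.671 FPKM in the pretreated library, a ratio of 1.16. The cluster thus held its most abundant locus and a locus under 1 FPKM within 15065 bp of each other, the distance between the starts of Ly6i and Ly6a.

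Among the 4 members of the shared span, uc007wgp.1 was the highest, at 22.1 FPKM in the naive and 55.7 FPKM in the pretreated library, 2.52-fold higher. The locus uc007wgs.1 had 1.28 FPKM in the naive and 2.20 FPKM in the pretreated library, and uc007wgr.1 had 0.524 and 1.07 FPKM. The remaining locus, uc007wgq.1, had 0.714 FPKM in naive cells and is listed at 0 in pretreated cells, so it has no ratio. In all, 7 of the 8 members had the higher value in the pretreated library and 1 the lower. Of those higher, Ly6i and uc007wgr.1 had a mean under 1 FPKM. The share of all loci higher by any amount was not counted, so this direction count stands without a background.

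**Figure D2:**
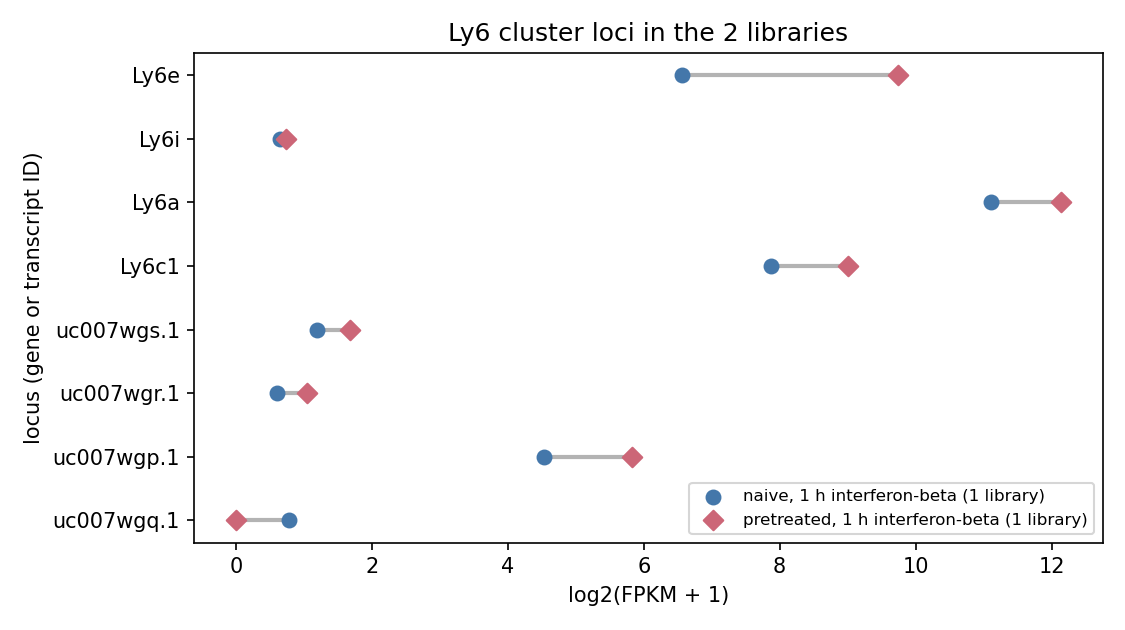
Level of each of the 8 loci as log2(FPKM + 1) (horizontal axis) in the naive library (circles) and the pretreated library (diamonds), 1 library each, with a line joining the pair. Ly6e has the longest line, Ly6a lies farthest to the right, and uc007wgq.1 is the locus whose diamond lies to the left.

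Changes were then taken as differences of log2(FPKM + 1), pretreated minus naive, which understate the change of low loci. A mean of at least 1 FPKM was required, and 5 of the 8 members met it; Ly6i, uc007wgr.1 and uc007wgq.1 did not. The log2 change was 3.17 at Ly6e, 1.29 at uc007wgp.1, 1.13 at Ly6c1, 1.03 at Ly6a and 0.49 at uc007wgs.1. Thus 4 of the 5 were higher by 2-fold or more, and 0 were lower by as much. Of all 10228 loci compared, 2.83% were higher by 2-fold or more and 7.12% lower, that is 289 and 728 loci. Centring on the median of all loci made these 423 and 527, and among the 9227 with a transcript ID, as all members have, they were 222 and 391; the members stayed at 4 and 0 under both. The median change was 1.13 over the 5 members and -0.16 over all loci. These shares and medians stand side by side as a description, since the cluster was chosen on this same difference. Ly6a lay just past the 2-fold threshold, and uc007wgs.1 was the nearest member under it. At 4-fold, Ly6e alone of the members remained, where 0.968% of all loci were as much higher.

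The members below the minimum had log2 changes of 0.08 at Ly6i, 0.44 at uc007wgr.1 and -0.78 at uc007wgq.1. All of these lie within 2-fold on this scale, but the values depend on the pseudocount. With a pseudocount of 0.1 they were 0.19 at Ly6i, 0.90 at uc007wgr.1 and -3.03 at uc007wgq.1, which is listed at 0 in a library. As a plain ratio, uc007wgr.1 was 2.03-fold higher in the pretreated library.

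**Figure D3:**
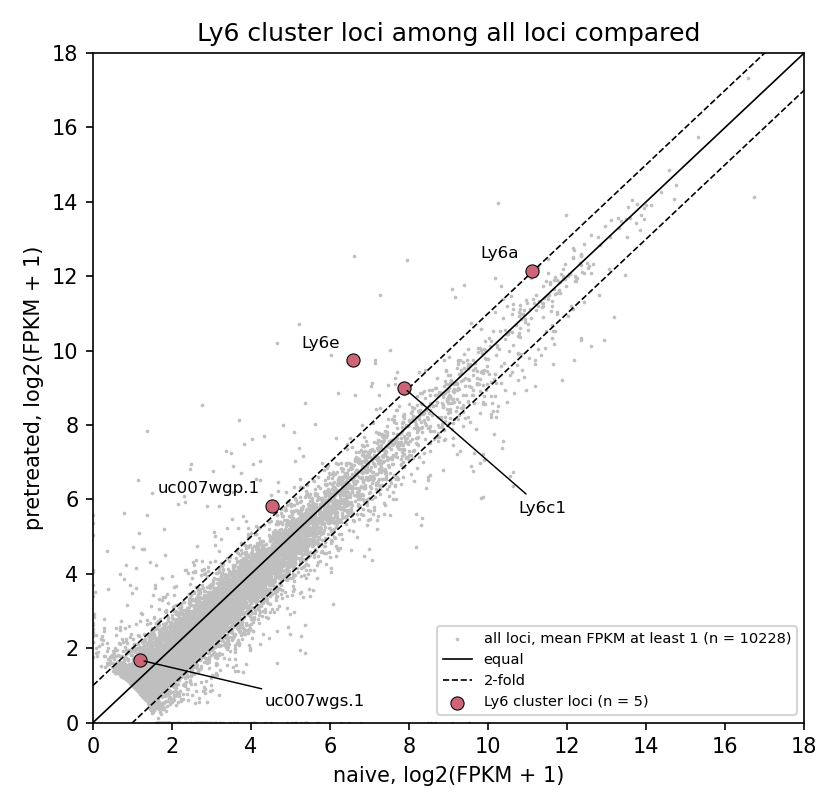
Pretreated (vertical axis) against naive level (horizontal axis), both as log2(FPKM + 1), for the 10228 loci with a mean of at least 1 FPKM (grey) and the 5 cluster loci among them (red). Ly6e lies far above the dashed 2-fold line, Ly6a, Ly6c1 and uc007wgp.1 lie at or just above it, and uc007wgs.1 lies under it.

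In the authors' deposited table all 8 members were tested, on the reads of these 2 libraries and not on replicates. That table called 4 members higher: Ly6e with a q-value listed as 0, Ly6a with 0.000915, uc007wgp.1 with 0.00578 and Ly6c1 with 0.00694. It called 1 member lower, uc007wgq.1, with a q-value of 0.0305 in the authors' deposited table. By the same rule, a q-value under 0.05, the authors' deposited table called 3.91% of its 13388 tested loci higher and 11.9% lower. The members without a call in the authors' deposited table had q-values of 0.257 (uc007wgr.1), 0.348 (uc007wgs.1) and 0.889 (Ly6i).

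The order of the members by level differed between the libraries at a single place among the 4 highest. In naive cells it ran Ly6a, Ly6c1, Ly6e, uc007wgp.1, and in pretreated cells Ly6a, Ly6e, Ly6c1, uc007wgp.1. Without replicates it cannot be said which neighbours in either order differ beyond the spread between cultures.

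Ratios between members show the same exchange. Ly6a exceeded Ly6c1 by 9.46-fold in naive and 8.84-fold in pretreated cells, so this pair kept nearly the same proportion. Ly6a exceeded Ly6e by 23.5-fold in naive but 5.30-fold in pretreated cells. Ly6c1 was 2.48-fold above Ly6e in naive cells, whereas in pretreated cells Ly6e was 1.67-fold above Ly6c1. The log2 change at Ly6e was larger than that at Ly6a by 2.13 and larger than that at Ly6c1 by 2.04.

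Summed over the 8 members, the cluster held 2556 FPKM in the naive and 5934 FPKM in the pretreated library, a 2.32-fold difference of 3378 FPKM. Ly6a supplied 86.2% of the sum in naive and 76.0% in pretreated cells. The share of Ly6e was 3.67% in naive and 14.3% in pretreated cells, and that of Ly6c1 was 9.12% and 8.60%. Of the added FPKM, 68.3% was Ly6a, 22.4% Ly6e and 8.21% Ly6c1. Although Ly6e had the largest ratio, most of the added FPKM in the cluster was therefore at Ly6a. As a share of the FPKM of the 15829 ranked loci, the cluster made up 0.322% in naive and 0.714% in pretreated cells.

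Loci around the cluster were nearly silent on one side. The nearest 3 loci with a transcript ID before it were Gml, a glycosylphosphatidylinositol-anchored relative in the Ly6 family, uc007wge.2, and Cyp11b2, the aldosterone synthase gene. Gml is listed at 0 in naive cells and had 0.573 FPKM in pretreated cells. For uc007wge.2 the values were 0.126 and 0.205 FPKM. Cyp11b2, which ends 98733 bp before Ly6e starts, is listed at 0 in naive cells and had 0.0198 FPKM in pretreated cells. Each of the 3 was under 1 FPKM in both libraries.

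On the other side the nearest locus with a transcript ID, uc007wgx.1, lies 344451 bp beyond the last member. It had 4.48 FPKM in the naive and 3.92 FPKM in the pretreated library. Next came uc007wgz.1, at 0.716 and 0.725 FPKM, and Top1mt, the mitochondrial topoisomerase gene, at 4.72 FPKM in the naive and 6.17 FPKM in the pretreated library. Of these 6 flanking loci, 0 reached a 2-fold difference on the log2(FPKM + 1) scale. Gml, uc007wge.2, Cyp11b2 and uc007wgz.1 were under 1 FPKM in both libraries and could not reach it on this scale. With a pseudocount of 0.1 the log2 change at Gml was 2.75. The count therefore says little about whether the flanks share the change.

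**Figure D4:**
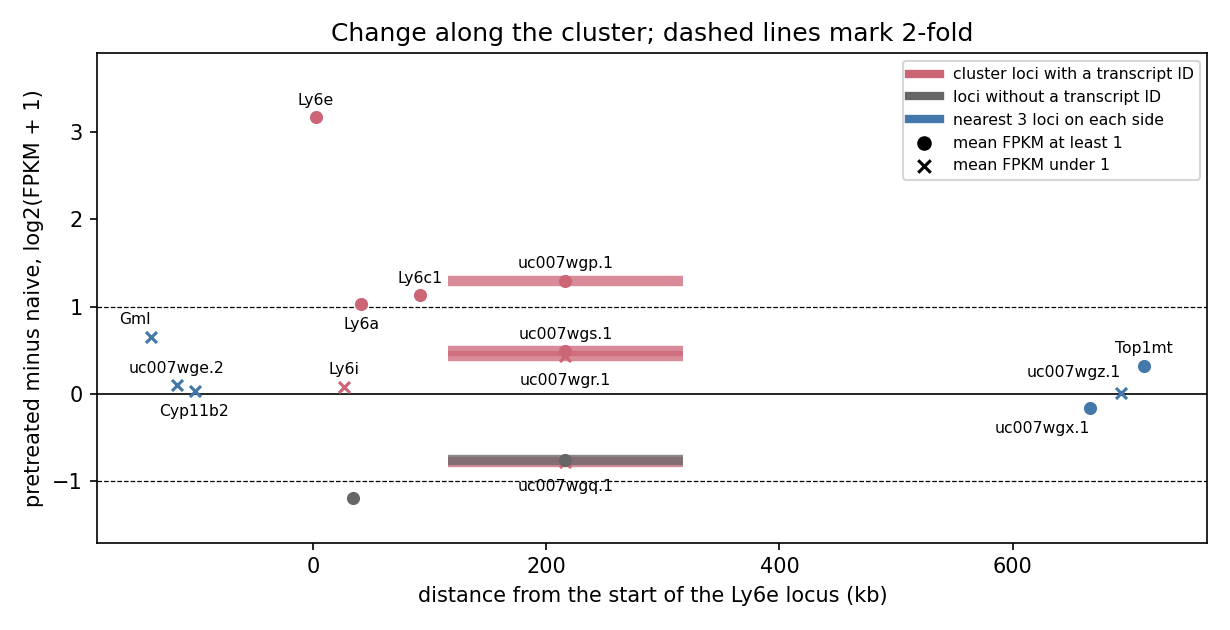
Difference of log2(FPKM + 1), pretreated minus naive (vertical axis), against distance from the start of Ly6e (horizontal axis, kb) for the 8 cluster loci (red), 2 loci without a transcript ID (grey) and the nearest 3 loci on each side (blue). Crosses mark a mean under 1 FPKM and bars the shared span. Ly6e is highest at 3.17. The flanking loci lie between the dashed 2-fold lines, as any locus under 1 FPKM in both libraries must.

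Relatives elsewhere in the genome were looked for by the same layout match, carried out on all chromosomes. Of a list of 34 Ly6 and uPAR family genes it named 9, the 4 members and 5 others. Cd59a, which protects cells from complement, had 6.35 FPKM in the naive and 5.94 FPKM in the pretreated library. Psca, a gene of the same chromosome first found in prostate, had 0.939 and 1.82 FPKM. Gml is given above, Ly6g5b had 0.147 and 0.0662 FPKM, and Lypd6 is listed at 0 in naive cells with 0.0172 FPKM in pretreated cells. Of these 5 relatives, 2 had a mean of at least 1 FPKM, Cd59a and Psca, and 0 differed by 2-fold or more on the log2(FPKM + 1) scale. Gml, Ly6g5b and Lypd6 were under 1 FPKM in both libraries and could not do so on that scale. As plain ratios, Ly6g5b stood at 0.451 and Psca at 1.94. The median log2 change of the 5 relatives was 0.02.

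The match also named 8 of 30 listed genes of the type I interferon pathway, which give the setting for the Ly6 values. Ifnar2, a subunit of the interferon receptor, had 5.13 FPKM in the naive and 5.38 FPKM in the pretreated library. The other 7, which are interferon-stimulated, were each at least 2-fold higher in the pretreated library. Over all 10228 loci compared, 2.83% were as much higher. The median log2 change of the 8 was 2.40, and the rest of the 30 listed genes are not covered by it. Isg15, a ubiquitin-like modifier, had 4.49 FPKM in the naive and 112 FPKM in the pretreated library. Usp18, which removes Isg15 from proteins and restrains receptor signalling, had 184 and 1034 FPKM. Ifi44 had 10.6 and 118 FPKM, and Ccl5, a chemokine, had 12.3 and 104 FPKM. The antiviral GTPase genes Mx1 and Mx2 had 17.6 and 91.0 FPKM, and 23.2 and 58.0 FPKM. Oasl1 had 0.748 and 4.79 FPKM. The ratio at Ly6e, 9.07, lay between those of Ccl5, 8.45, and Ifi44, 11.2, while the ratios at Ly6a and Ly6c1 lay below that of Mx2, 2.50.

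Depth and cell identity could be checked in part. The values give no read counts, so depth was estimated from loci without a transcript ID that are listed at 0 in one library. Their reads in the other library, up to 4, were inferred from the deposited p-values under a normal approximation, which was not tested. On that assumption the depth of the pretreated library was 0.492 of that of the naive library, from 14 spans compared. At an equal FPKM value, a member would then rest on fewer reads in the pretreated library. Layout named 3 of 10 listed fibroblast markers: Col3a1 had 111 FPKM in the naive and 69.1 FPKM in the pretreated library, Pdgfrb had 45.0 and 47.8 FPKM, and Thy1 was low at 0.144 and 0.293 FPKM. Of 6 leukocyte markers 1 was named, Cd68, at 0.788 and 1.09 FPKM. Of 3 endothelial and 4 epithelial markers 0 were named. Ly6a and Ly6c1 also mark blood and vessel cells. A part of such cells in their values was not tested, since Cd68 is a single leukocyte marker and no endothelial marker was named.

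A RefSeq promoter sequence (GRCm38.p6, 300 bases around a start, most of them upstream) was matched for Ly6c1, 1 of the 4 named members. Promoters of Ly6e, Ly6i and Ly6a were looked up and were not available, so availability decided which is shown. The first of the 2 listed Ly6c1 windows lies at chr15:75048788-75049087 on the minus strand.
Ly6c1 promoter: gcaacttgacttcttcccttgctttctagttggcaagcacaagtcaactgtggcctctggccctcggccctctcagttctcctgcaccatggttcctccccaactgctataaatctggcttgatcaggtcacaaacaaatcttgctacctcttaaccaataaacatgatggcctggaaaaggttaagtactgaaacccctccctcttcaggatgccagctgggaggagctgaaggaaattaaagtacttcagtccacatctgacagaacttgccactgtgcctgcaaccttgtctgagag

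The interferon-stimulated response element, the motif through which type I interferon acts on many of its target genes, was searched on both strands as GAAA followed after any 2 bases by GAAA. It occurs in 3.44% of 32851 RefSeq promoters of 300 bases. It gave 0 matches in both Ly6c1 windows. A second motif searched, the gamma-activated site, occurs in 8.3% of these promoters and also gave 0 matches in both windows. These results say only that the letters searched are not in these 300 bases.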

How the data were processed

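The authors deposited 1 table with an FPKM value per locus and library and, for each locus, p-value, q-value and call. The submitters' processing notes name TopHat, Cufflinks 1.2.1 and build mm9, with no roles; the annotation, filtering and any between-library scaling are not given in the sources used here. The deposited log2 fold change holds placeholders at values of 0 and was not used; changes were recomputed with Python 3.11.15 and pandas 2.3.3 as log2(FPKM + 1), pretreated minus naive, and counted past 2-fold among loci with a mean of at least 1 FPKM. Per the labels, each group has 1 library, so no test was run; p-values and q-values are those in the authors' deposited table. Those q-values differed by at most 1.68e-06 from a Benjamini-Hochberg adjustment (statsmodels 0.14.6).

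Listed starts were raised by 1, which made the spans of Ly6e and Ly6i equal those annotated. No table pairs the transcript IDs with symbols. Names therefore come from the layout match: a span within 10 bases of a GENCODE M21 transcript and at least 3 other loci within 2000000 bases at the same spacing, which named 4182 of 12183 loci. No coordinate was moved between builds. The design had reserved its gene lists for IDs paired by a table, so their use with the layout match was decided after seeing the data. Every member may be named, with 3 loci on each side and, for members that met the FPKM minimum, the 3 loci nearest in level. Members and lists were chosen with earlier results of these data known. The functions were tested on simulated data. Coding sequences were aligned with Biopython 1.88.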

Additional observations from a re-analysis of the deposited data

How the results depend on the processing

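Under most of the 6 alternatives the count of cluster loci at least 2-fold higher stayed at 4 and of those lower at 0. These were a pseudocount of 0.1, no filter, a minimum mean of 5 FPKM, centring on the median and restriction to loci with a transcript ID. A 4-fold threshold left 1 higher. No setting could count uc007wgq.1, at 0.714 and 0 FPKM, as lower. The minimum mean removes it, and without a filter the pseudocount of 1 keeps it within 2-fold. The count of 0 lower therefore says nothing about that locus. The cluster's median log2 change, 1.13, became 0.76 over all 8 members without a filter and 1.29 after centring. Over all loci, 289 were higher and 728 lower. These became 465 and 1175 with a pseudocount of 0.1, 176 and 452 at a minimum mean of 5 FPKM, and 99 and 143 at 4-fold, and 391 were lower among loci with a transcript ID. The named loci kept their direction under each of these settings that gave a value. The largest move was at uc007wgq.1 (-0.78 to -3.03 with a pseudocount of 0.1), which is listed at 0 in a library. No paired analysis was possible because there is a single library per group, and for the same reason no replicate was left out. Unequal depth, if as estimated, would limit members under 1 FPKM.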

Other observations

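Inside the cluster's window, 2 loci carry no transcript ID and were not members. A locus of 334 bp from 74819890 to 74820223, between Ly6i and Ly6a, had 3.32 FPKM in the naive and 0.900 FPKM in the pretreated library, with a log2 change of -1.18. The second is listed with the same span of 201411 bp as uc007wgp.1, uc007wgq.1, uc007wgr.1 and uc007wgs.1, and cannot be placed within it. It had 9.72 FPKM in the naive and 5.36 FPKM in the pretreated library, with a log2 change of -0.75. Both were lower in the pretreated library. The median change over all loci compared was also negative, at -0.16. Of all loci compared, 7.12% were lower by 2-fold or more, as the locus of 334 bp was. The authors' deposited table made no call at either, with q-values of 0.264 and 0.418.

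The loci closest to each member in both levels were found by distance on the log2(FPKM + 1) scale over the 2 libraries, among loci with a transcript ID. For Ly6c1 the closest was Iigp1, an immunity-related GTPase gene, at 252 FPKM in the naive and 487 FPKM in the pretreated library, a distance of 0.13. The third closest was Psme2, a proteasome activator subunit, at 198 and 544 FPKM, a distance of 0.25. For uc007wgp.1 the closest was Mx2, at a distance of 0.09, and the second was Gstt1, a glutathione S-transferase gene, at 26.0 and 52.6 FPKM, a distance of 0.24. For uc007wgs.1 the third closest was Aldh1b1, an aldehyde dehydrogenase gene, at 1.29 and 2.27 FPKM, a distance of 0.03. Of the 15 closest loci, the 6 named by the layout match are given by symbol here. For Ly6a the third closest was Rpl38, a ribosomal protein gene, at 2664 FPKM in the naive and 3438 FPKM in the pretreated library, a distance of 0.48. For Ly6e the nearest was at 0.56, a locus on chromosome 11 (uc007ipj.1) that the layout match did not name, with 139 FPKM in the naive and 807 FPKM in the pretreated library. With 2 libraries a short distance describes similar levels in this pair of samples.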
